A study of Mus musculus with 4 samples.

Results

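Retinoid synthesis and receptor genes were followed in breast cancer cells taken from tumours of MMTV-Neu mice, through the 11 array probes that the scanner files assign to Aldh1a1, Aldh1a2, Aldh1a3, Aldh1a7, Rara, Rarb, Rarg, Crabp1 and Crabp2. These 11 probes, for 9 genes, were chosen by gene name among 39429 non-control probes with 31829 gene names. The rule uses no measured value, although the genes were picked with earlier results of these data known. Where a gene had several probes, the one with the highest mean over all 4 arrays gave its value, and the other is described beside it. RNA from 4 samples was hybridised to a single-colour (Cy3) mouse array with probes of 60 bases, to compare cells by the presence of Pak1, a p21-activated kinase. Cells of 2 samples came from MMTV-Neu Pak1 KO mice (genotype Pak1-/-) and cells of the other 2 from MMTV-Neu Pak1 wt mice (genotype Pak1+/+). Every sample carried the Neu (Her2) oncogene under the mammary tumour virus promoter, was kept without serum for 3 h and then received EGF for 15 min. The methods call the cells tumour-derived lines and the design text states separate tumours within each group, with n = 2 per group and no other animals as replicates. No age is given in the labels.

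Retinoic acid is made from vitamin A inside the cell. Retinol dehydrogenases oxidise retinol to retinaldehyde, aldehyde dehydrogenases of the ALDH1A family oxidise retinaldehyde to retinoic acid, and CYP26 enzymes break it down. Retinoic acid binds the retinoic acid receptors (RARs), which sit on DNA in pairs with the retinoid X receptors (RXRs), while the CRABP proteins carry it within the cell. In mammary tissue, ALDH1A activity is widely used to mark progenitor and tumour-initiating cells.

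The sequence that the receptors read on DNA is a direct repeat, and it is shown here because the receptor gene Rarb and the degrading enzyme Cyp26a1 are its textbook carriers. The canonical hexamer AGGTCA was searched together with its common forms, which are AGTTCA as in the Rarb element, GGTTCA as the upstream unit of that element, and the further form GGGTCA. Any of them followed by the same or another of them on the same strand after 5 bases counted, on either strand, in the RefSeq windows from 250 bases before to 50 bases after each gene start (GRCm38.p6). Such a repeat stood in 32 of 32851 windows (0.0974%). Since the hexamer forms include those of the known Rarb element, its presence in Rarb was fixed by the search and is no finding. None of the other 6 members matched to a window held it, and among the other retinoid lists it stood in Cyp26a1, 1 of 54 matched genes. Spacers of 1 and 2 bases gave 73 (0.222%) and 88 (0.268%) windows, with no member among them. A match describes the letters of the window and shows no binding. The 250 bases before each start, 5′ to 3′ on the strand of the gene, were chr14:16575477-16575726 (minus strand) for Rarb and chr19:37697558-37697807 (plus strand) for Cyp26a1, with the repeat in capitals (in Cyp26a1 it reads on the opposite strand).
Rarb: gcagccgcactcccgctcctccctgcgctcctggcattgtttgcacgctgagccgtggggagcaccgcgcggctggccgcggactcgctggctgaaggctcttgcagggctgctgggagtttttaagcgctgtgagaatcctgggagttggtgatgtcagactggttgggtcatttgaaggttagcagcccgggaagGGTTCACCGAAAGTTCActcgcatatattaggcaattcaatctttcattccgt
Cyp26a1: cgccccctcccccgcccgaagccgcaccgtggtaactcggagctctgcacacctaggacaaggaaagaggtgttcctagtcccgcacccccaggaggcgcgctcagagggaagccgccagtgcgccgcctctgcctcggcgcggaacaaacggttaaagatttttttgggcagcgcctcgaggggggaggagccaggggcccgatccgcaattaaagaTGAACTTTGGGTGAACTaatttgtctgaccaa

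Intensities were background corrected, quantile normalized and put on the log2 scale, and the groups were compared in limma with p-values adjusted over all 27229 probes kept (Benjamini-Hochberg, threshold 0.05). Differences are Pak1-/- minus Pak1+/+ on that log2 scale, with the standard error (SE) of the fit. The Pak1 probe did not read lower in the arrays labelled Pak1-/- (12.21 and 12.25, against 12.04 and 12.04 in the arrays labelled Pak1+/+, adjusted p = 0.070 in limma). Under cyclic loess it was called higher there (0.27, adjusted p = 0.027, range 0.027 to 0.24 over the alternatives), so each direction below rests on the labels alone. Signal was well above background for 62.2% to 70.4% of the probes per array. The 4 arrays shared 1 slide, where Pak1-/- held positions 1 and 2 and Pak1+/+ held 3 and 4. Genotype and place on the slide therefore cannot be told apart. Keratin 8 and 18 and Epcam were well above background on all 4 arrays, as a mammary epithelial label requires. Dcn, Lum, Pdgfrb, Adipoq and Lep were not on any array, while the other adipocyte markers, Cidec and Plin1, were on 1 array each. The summed linear intensity of 6 basal markers (5 well above background on all 4 arrays, Myh11 on none) was 86724 to 94671 in Pak1-/- and 18875 to 19379 in Pak1+/+, and that of 8 luminal markers (7 on all arrays, Krt19 on 3) was 1013462 to 1022028 and 801813 to 804644. All 5 measured basal markers were called higher in Pak1-/-, namely Krt17 (4.92), Krt14 (2.83), Acta2 (1.69), Krt5 (0.50) and Trp63 (0.43). Krt8 and Krt18 make up most of the luminal sum. Cdh1 (1.19), Krt8 (0.57), Gata3 (0.45) and Krt18 (0.27) were called higher in Pak1-/-, while Elf5 (-0.35), Epcam (-0.23), Prlr (-0.19) and Krt19 (-0.64) had negative differences that did not pass. The sum over 6 fibroblast markers (3 on all arrays, 3 on none) was 1181 to 1358 in Pak1-/- and 981 to 1034 in Pak1+/+, with Col1a1 called higher (1.12, adjusted p = 0.0051 in limma). That over 4 endothelial markers (2 on all arrays, Tek on none) was 9921 to 10302 and 8990 to 10803, with none called. The sum over 6 leukocyte markers (5 well above background on all arrays) was 52070 to 74735 in Pak1-/- and 43246 to 47738 in Pak1+/+. Itgam, which did not pass, makes up most of that sum, and the only leukocyte marker called was Ptprc, which was lower in Pak1-/- (-0.45, adjusted p = 0.0056 in limma). The part of these markers in the results below was not tested. In such bulk RNA, fewer cells of a type and less RNA per cell cannot be told apart.

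Expression of the retinoid members differed in both directions between the groups. Of the 9 genes, 8 passed the filter on dim probes and were tested. Aldh1a3, Rara and Crabp2 were higher in Pak1-/- (3 of 8, where 22.8% of all 22006 genes tested were), Aldh1a1, Aldh1a7 and Rarb were lower (3 of 8, against 28.2%), and Aldh1a2 and Rarg did not pass the threshold. In all, 6 of 8 tested members passed, against 51.0% of all genes and 51.9% of all probes, and with so many genes called a share like this says little about the members. The 2 groups did not overlap for any of the 8, where 77.5% of all genes did not overlap. A change of at least 2-fold was called for Aldh1a3 and Aldh1a7, 2 of 8 against 12.6% of all genes. The median difference of the tested members was 0.03 and their median absolute difference 0.52, beside -0.05 and 0.32 over all genes.

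**Figure D1:**
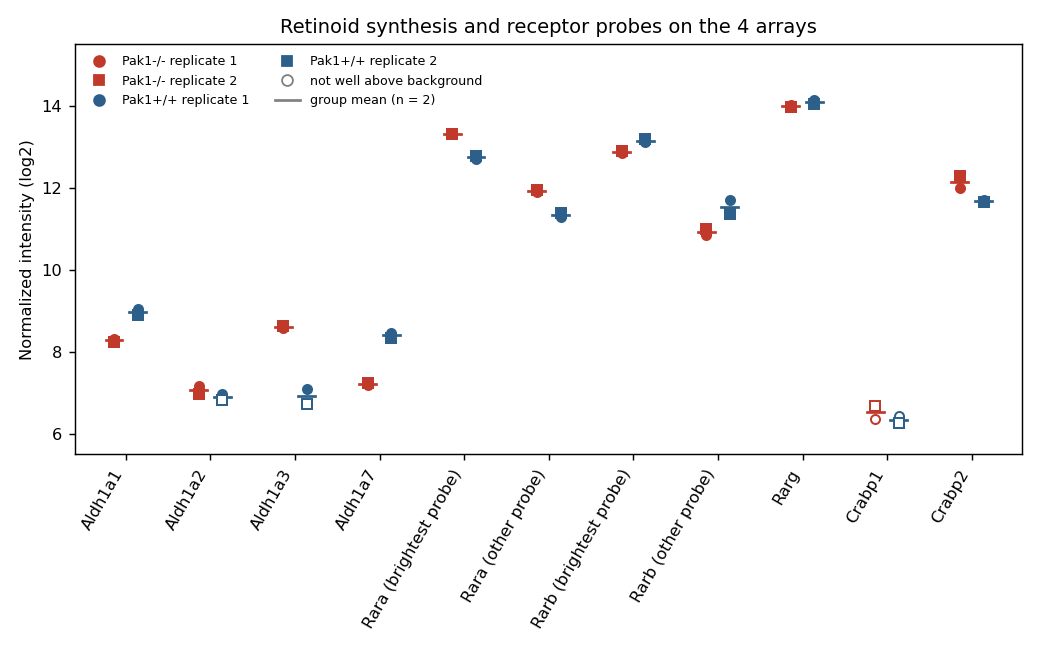
Normalized log2 intensity (y axis) of each of the 11 member probes (x axis) on the 4 arrays, red for Pak1-/- and blue for Pak1+/+, with circles for replicate 1, squares for replicate 2, open symbols where the probe was not well above background and short lines for group means (n = 2). Aldh1a3 sits at 8.58 and 8.63 in Pak1-/- and at 7.10 and 6.74 in Pak1+/+, while Aldh1a7 shows the opposite order. Heights of different probes are not comparable with each other.

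The Aldh1a genes differed in direction. Aldh1a3, an ALDH1A enzyme known from breast cancer cells with high aldehyde dehydrogenase activity, rose most (mm9 chromosome 7, 73535785 to 73535844). Its normalized log2 intensity was 8.58 and 8.63 in the arrays labelled Pak1-/- and 7.10 and 6.74 in those labelled Pak1+/+. Both Pak1-/- arrays were above both Pak1+/+ arrays, and replicate 2 of Pak1+/+ was not well above background, so the lower level was measured on 1 of 2 arrays. The difference was 1.68 (SE 0.14, adjusted p = 0.0011 in limma), which is 3.21-fold on the scale with an offset of 50 added to the intensities. Such an offset shrinks changes of dim probes, and without it the difference was 2.27. With the processed signal of the scanner software it was 2.90, at processed intensities of 293 and 300.1 in Pak1-/- and 52.7 and 29.1 in Pak1+/+.

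Aldh1a7 and Aldh1a1 both fell. These are neighbouring genes on chromosome 19 with closely related sequences, Aldh1a1 being a cytosolic retinaldehyde dehydrogenase and Aldh1a7 its rodent relative. Aldh1a7 (mm9 chromosome 19, 20767553 to 20767612) had values of 7.20 and 7.24 in Pak1-/- and 8.46 and 8.35 in Pak1+/+. All 4 arrays were well above background, and the Pak1-/- arrays lay below both others by more than 1 log2 unit. The difference was -1.18 (SE 0.08, adjusted p = 0.00063 in limma), or 2.27-fold lower in Pak1-/-, and -1.83 with the processed signal. Aldh1a1 (chromosome 19, 20717764 to 20717823) had values of 8.31 and 8.25 in Pak1-/- and 9.04 and 8.91 in Pak1+/+. Its difference was -0.70 (SE 0.08, adjusted p = 0.0028 in limma), or 1.62-fold lower, again with no overlap. Both calls held under each of 14 alternative settings.

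The probe sequences of Aldh1a1 and Aldh1a7 were compared with each other. This cannot show whether either probe binds the transcript of the other gene. Their longest shared run was 8 bases and 13 of 60 positions were identical in a plain alignment without gaps. The stretches below, copied from the scanner files, hold that shared run in capitals (positions 25 to 54 of the Aldh1a1 probe and 1 to 30 of the Aldh1a7 probe, counted from the end listed at the left).
Aldh1a1: ccctcagtgacTCCTTGAAgtactcaccac
Aldh1a7: tTCCTTGAActatgtaccatgcatgataac
Across all pairs of member probes no shared run was longer than 10 bases. No probe was compared with a transcript, so binding to transcripts of other genes, members included, was not tested.

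Aldh1a2, the retinaldehyde dehydrogenase best known from the embryo, stayed near background (chromosome 9, 71143931 to 71143990). Its values were 7.16 and 6.98 in Pak1-/- and 6.97 and 6.84 in Pak1+/+, the last of them not well above background. The difference of 0.17 did not pass (95% interval -0.09 to 0.43, adjusted p = 0.21 in limma).

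Among the receptors, Rara rose, Rarb fell and Rarg did not pass the threshold. Rara, the broadly expressed receptor RAR alpha (chromosome 11, 98836197 to 98836256), read 13.30 and 13.31 in Pak1-/- and 12.70 and 12.77 in Pak1+/+, a difference of 0.57 (SE 0.07, adjusted p = 0.0033 in limma), or 1.48-fold. The other Rara probe (98835350 to 98835409) gave 11.90 and 11.95 against 11.29 and 11.37, a difference of 0.59 (SE 0.07, adjusted p = 0.0032). The spread within each group was at most 0.08 at both probes, and both calls held under all 14 alternatives that were run.

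Rarb encodes RAR beta, a receptor whose own gene is switched on by retinoic acid through the repeat printed above. Its brightest probe (chromosome 14, 17263367 to 17263426) read 12.85 and 12.89 in Pak1-/- and 13.11 and 13.18 in Pak1+/+. This small decrease of 0.27 log2 (SE 0.07, adjusted p = 0.031 in limma) was 1.21-fold. The other probe (17264648 to 17264707) read 10.84 and 11.003 against 11.69 and 11.35, a difference of -0.60 (SE 0.14, adjusted p = 0.023). Both Rarb calls depended on the processing. That of the brightest probe was lost in each of the 4 fits that left out 1 sample (adjusted p 0.068 to 0.16), with the replicate block (adjusted p = 0.059), under cyclic loess (0.073) and without a filter on dim probes (0.055), while its range over all alternatives was 0.016 to 0.16. With Pak1-/- replicate 1 (adjusted p = 0.11), Pak1-/- replicate 2 (0.066) or Pak1+/+ replicate 1 (0.060) left out, the other probe no longer passed, within a range of 0.013 to 0.11. The sign of both probes was negative in every one of these settings.

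Rarg, the receptor RAR gamma (chromosome 15, 102065371 to 102065430), read 14.005 and 13.96 in Pak1-/- and 14.13 and 14.04 in Pak1+/+. The difference of -0.10 did not pass (95% interval -0.29 to 0.09, adjusted p = 0.30 in limma), and its sign turned under cyclic loess.

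Of the retinoic acid carriers, Crabp2, which delivers retinoic acid to the receptors in the nucleus, was higher in Pak1-/- (chromosome 3, 87757207 to 87757266). It read 11.98 and 12.29 in Pak1-/- and 11.69 and 11.65 in Pak1+/+. The 2 Pak1-/- arrays differed by more than the Pak1+/+ arrays, and the lower of them still lay above both. The difference was 0.47 (SE 0.12, adjusted p = 0.030 in limma), or 1.38-fold. That call was lost without Pak1-/- replicate 2 (0.31, adjusted p = 0.051), Pak1+/+ replicate 1 (0.081) or Pak1+/+ replicate 2 (0.099), with the processed signal (0.053) and with no filter (0.053), in a range of 0.016 to 0.099 over the alternatives. Crabp1, the other carrier (chromosome 9, 54616192 to 54616251), was not well above background on any array. Its values of 6.36 and 6.69 in Pak1-/- and 6.44 and 6.26 in Pak1+/+ overlapped, and it was not tested.

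**Figure D2:**
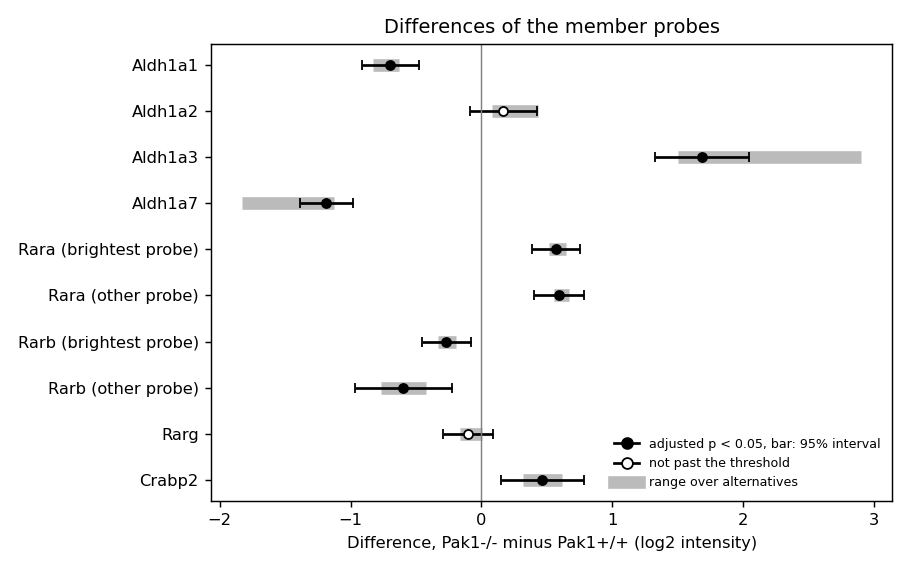
Difference of each tested member probe on the log2 scale (x axis, Pak1-/- minus Pak1+/+), with 95% intervals from the limma fit as thin bars and the range over the alternative settings as grey bands. Filled points passed an adjusted p of 0.05. Aldh1a3 lies at 1.68 and Aldh1a7 at -1.18, both bands extending away from 0, whereas the interval of Rarg spans 0.

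The steps around the members were examined through 76 other genes of retinoid uptake, metabolism, response and aldehyde oxidation. All had a probe, 66 were tested, 19 were higher and 19 lower in Pak1-/- (38 of 66, 57.6%, against 51.0% of all genes). Their median difference was -0.08 beside -0.05 over all genes. As many genes were higher as lower. By measured difference, changes of at least 2-fold were called for 19 of the 66, 10 higher and 9 lower, against 12.6% of all genes. Adh7, Meis1 and Stra8 are among them, and the bound for Stra8 was only 1.91-fold.

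Genes of retinol uptake and binding differed in both directions. Rbp7, a cellular retinol-binding protein, read 12.86 and 13.50 in Pak1-/- and 8.61 and 8.31 in Pak1+/+, a difference of 4.72 (SE 0.24, adjusted p = 0.00034 in limma) or 26.4-fold. Stra6, the membrane receptor that takes up retinol from its plasma carrier, ran the other way. It read 6.97 and 6.88 in Pak1-/-, the latter not well above background, and 9.45 and 9.77 in Pak1+/+, a difference of -2.69 (SE 0.13, adjusted p = 0.00028), and -4.20 with the processed signal. In this list of 10 genes 5 were tested, 3 were higher and 1 was lower (80% called, against 51.0% of all genes).

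Of 14 retinol dehydrogenases tested, 2 were higher in Pak1-/-, 6 were lower and 6 did not pass (57.1% called, against 51.0% of all genes). Dhrs7 (-2.35) and Rdh11 (-1.21), short-chain dehydrogenases, were lower in Pak1-/- with adjusted p of 0.00032 and 0.00070 in limma. Adh7, an alcohol dehydrogenase active on retinol, was well above background only in Pak1+/+ (8.13 and 8.03), and so at least 2.76-fold lower in Pak1-/-. The 2 genes that rose act in opposite directions on retinaldehyde. Rdh10, which makes it from retinol, was higher by 0.87 (14.05 and 13.96 against 13.15 and 13.12, adjusted p = 0.0012), and Dhrs3, which turns it back into retinol and is itself induced by retinoic acid, by 1.20 (13.78 and 13.89 against 12.57 and 12.70, adjusted p = 0.00078).

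Of the enzymes that degrade retinoic acid, Cyp26b1 rose. It read 10.72 and 11.20 in Pak1-/- and 8.33 and 8.07 in Pak1+/+, a difference of 2.76 (SE 0.19, adjusted p = 0.00073 in limma) or 6.76-fold. Cyp26a1, the other carrier of the repeat shown above, was near background, at 6.88 and 6.76 in Pak1-/- against 7.38 and 6.97 in Pak1+/+. It was well above background on replicate 1 of each group only, and its difference of -0.35 did not pass (adjusted p = 0.12), but it did without Pak1+/+ replicate 2 (-0.56, adjusted p = 0.026, range 0.026 to 0.38). Cyp26c1 was not well above background on any array.

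**Figure D3:**
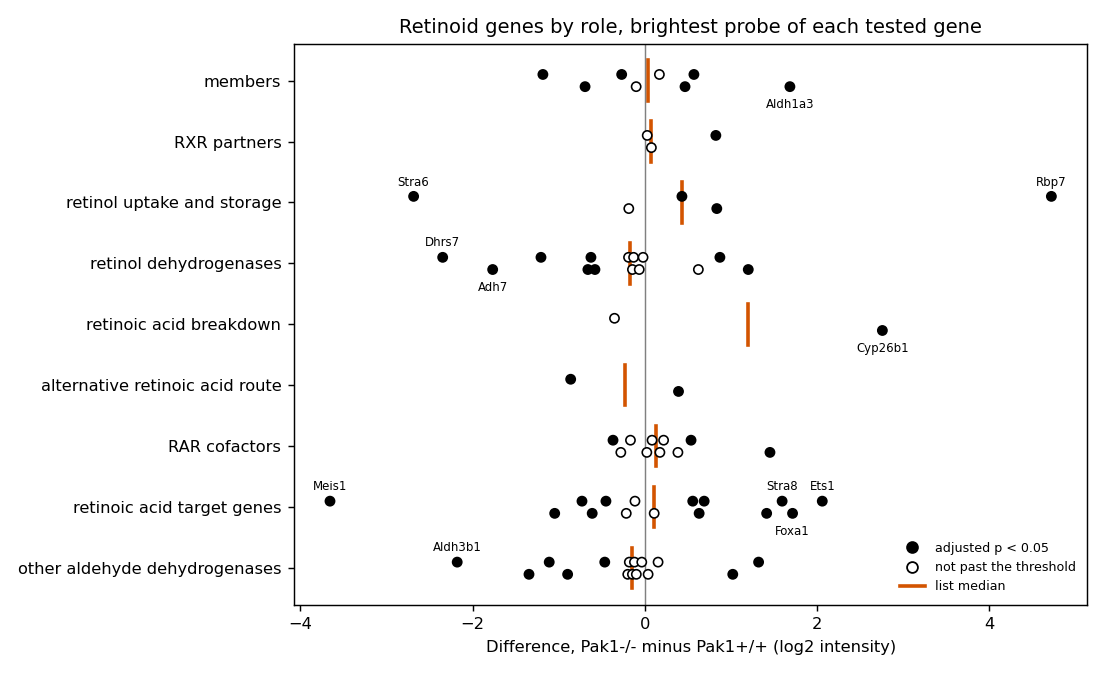
Difference in log2 intensity between Pak1-/- and Pak1+/+ (x axis) for the brightest probe of each tested gene, by list (y axis), with filled points for an adjusted p under 0.05 and orange lines for list medians. Points lie on both sides of 0 in the longer lists. Rbp7 lies at 4.72 and Stra6 at -2.69. Points of genes too dim in 1 group, such as Meis1, are plotted at their measured difference, although only a bound can be given for them.

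Among the partner receptors, Rxra, which encodes RXR alpha, was higher by 0.82 (9.95 and 9.92 against 9.08 and 9.15, SE 0.07, adjusted p = 0.0012 in limma), and its other tested probe was also called higher. Rxrb (0.03, adjusted p = 0.79) and Rxrg (0.07, adjusted p = 0.40) did not pass, and the sign of Rxrb turned under both 75th percentile scalings. Of 10 cofactors 2 were higher, 1 was lower and 7 did not pass, and the lower call was lost in 8 of 14 alternatives (adjusted p up to 0.17). On the alternative route, in which FABP5 delivers retinoic acid to PPAR delta, Fabp5 was lower (-0.86, adjusted p = 0.0019) and Ppard higher (0.39, adjusted p = 0.0092, but 0.056 without Pak1+/+ replicate 1, within a range of 0.0041 to 0.056).

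Genes known to respond to retinoic acid went both ways, with 7 higher and 5 lower of 15 tested (80% called, against 51.0% of all genes). Tgm2, tissue transglutaminase, read 17.49 and 17.27 in Pak1-/- and 15.94 and 15.99 in Pak1+/+ (difference 1.41, adjusted p = 0.00073 in limma). The transcription factors Ets1 (2.06) and Foxa1 (1.71) were higher, and Meis2 (-1.05, or -1.78 with the processed signal) was lower. Meis1, a homeobox factor, was well above background only in Pak1+/+ (10.13 and 10.23) and at least 11.8-fold lower in Pak1-/- (6.46 and 6.58). Stra8, a gene of retinoic acid response in germ cells, was well above background only in Pak1-/- (8.001 and 7.59) and at least 1.91-fold higher. Adh7, Meis1 and Stra8 passed the filter through 1 group alone, so they had to differ. Rarres1 also passed it through Pak1-/- alone and had no measurable fold.

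Aldehyde dehydrogenases outside the ALDH1A family gave 2 higher and 5 lower of 15 tested (46.7% called, against 51.0% of all genes). Aldh3b1 (-2.18), Aldh1l1 (-1.35), a folate enzyme, and Aldh6a1 (-1.11), a mitochondrial enzyme of valine breakdown, were lower in Pak1-/-. Aldh5a1 (1.32), the succinic semialdehyde dehydrogenase, and Aldh4a1 (1.02), an enzyme of proline breakdown, were higher. These 5 differences had adjusted p of at most 0.0044 in limma.

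**Figure D4:**
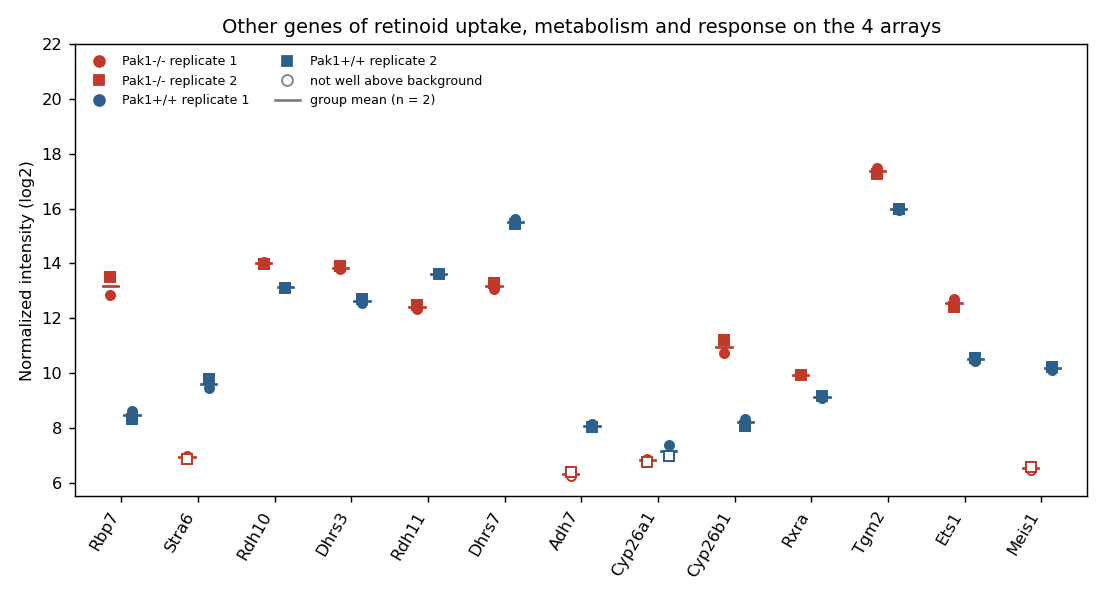
Normalized log2 intensity (y axis) of 13 other retinoid genes (x axis), picked after their values were seen, on the 4 arrays, with red for Pak1-/-, blue for Pak1+/+, circles for replicate 1, squares for replicate 2, open symbols for values not well above background and lines for group means (n = 2). Rbp7 and Cyp26b1 are higher in both Pak1-/- arrays, Stra6 and Meis1 in both Pak1+/+ arrays, and Cyp26a1 is near background throughout.

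Over the 4 arrays, the genes whose profiles lay closest to Aldh1a7 were Efna2, Zfp711 and Hat1, with root mean square differences of 0.0087 to 0.016 log2 between values centred on the mean of each probe. For Aldh1a1 the closest were an unnamed transcript (probe A_55_P2016326), Gm11747 and Ahctf1 (0.011 to 0.015). Both searches ran over 19148 genes well above background on all arrays. As the 4 arrays fall into 2 groups, any gene with a like difference between the groups and a small spread within them comes out close.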

How the data were processed

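Tumour-derived MMTV-Neu cells, 2 samples labelled Pak1-/- and 2 labelled Pak1+/+, were profiled on 4 single-colour arrays. The authors deposited scanner files of spot intensities on a linear scale, made per the file headers by Agilent Feature Extraction 9.5.3.1, with mm9 probe coordinates and no normalization between arrays. The authors also deposited log2 values of these arrays, normexp corrected and quantile normalized by their methods, with an unstated offset. These filled 24008 of 39485 rows and served as an alternative.

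Background was corrected with normexp (offset 50) in limma 3.58.1 (R 4.3.3), control spots were removed, log2 values were quantile normalized and repeat spots averaged. Of 39429 probes, 27229 passed the filter, which asked for signal well above background on 2 or more arrays. Groups were compared with lmFit and eBayes (two-sided, genotype as the only term, Benjamini-Hochberg over the kept probes), and the code was tested on simulated data. An exact permutation test of 2 against 2 cannot go below p = 0.333. The number of arrays limits the precision. Where both arrays of a group were too dim, the change is a bound ("at least") against the dimmest signal that the scanner software still called well above background, per array.

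Members kept the gene names of the scanner files, and other probes took the RefSeq symbol of their accession (26055 of 32334 matched) or else the name in the file. Named were all members and, from the other lists, genes past the threshold with at least a 2-fold change, or the largest change of a list without any, while a few genes that fall under this rule are not reported here. Rxrb, Rxrg, Ppard, Rdh10, Cyp26a1, Cyp26c1 and Rarres1 were added after their values were seen. Members and lists were chosen with earlier results of these data known. No label pairs the samples across groups by replicate number. Alternatives covered background correction, normalization, the deposited table, filter, eBayes trend, threshold, replicate block and leaving out each sample.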

Additional observations from a re-analysis of the deposited data

How the results depend on the processing

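Among the values of the member probes under alternative settings, 122 were unchanged in direction and call. In 15 cases a call was lost (Rarb and Crabp2, as given above), and Rarg changed sign under cyclic loess (0.0059). Of the other genes named above, Ppard lost its call and Cyp26a1 and Pak1 gained one, each under 1 setting and as given above. Rxrb changed sign in 3, at -0.013 with the processed signal and -0.0049 with the normexp values scaled to the 75th percentile, and at -0.021 without Pak1+/+ replicate 1, the lowest of its leave-one-out fits (the highest was 0.074). The cause was not tested. No scaling moved the median of all probes by more than 0.1 log2.

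With an added 2-fold requirement on the measured difference, member genes past the threshold became 1 higher and 1 lower, and all probes 3413. Other retinoid genes became 10 higher and 9 lower, where Stra8 counts as higher although its bound was only 1.91-fold. At an adjusted p under 0.01 in limma, members became 2 higher and 2 lower, other retinoid genes 19 higher and 16 lower, and all probes 8878. Both are stricter by construction. With the replicate number as a term (replicate block), 3 members were higher and 2 lower, since Rarb lost its call (adjusted p = 0.059), and 13211 probes passed in place of 14132. Replicate 1 minus replicate 2 in one group was unrelated to that in the other (r = -0.028, across probes, which are not independent replicates). With 1 sample left out, a group of 1 is taken to vary like the other group.

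Signal over background limits Aldh1a2, Aldh1a3, Crabp1 and Cyp26a1. Without a filter, Crabp1 differed by 0.18 (adjusted p = 0.42).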

Other observations

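The Aldh1a1 and Aldh1a7 probes lie 49730 bases apart on mm9 chromosome 19. Within 500000 bases of them, 3 neighbouring probes were well above background on all arrays. All 3 were called higher in Pak1-/-, where 22.8% of all genes tested were, and 51.0% were called in either direction. A probe named Gm6684 (20660643 to 20660702), next to Aldh1a1, read 10.68 and 10.78 in Pak1-/- and 8.19 and 8.31 in Pak1+/+, a difference of 2.48 (SE 0.08, adjusted p = 0.00014 in limma). A probe for the transcript ENSMUST00000066183 (20497200 to 20497259) read 10.05 and 10.04 against 8.41 and 8.27, a difference of 1.71 (SE 0.08, adjusted p = 0.00028). Anxa1, the gene of annexin A1, was higher by 0.67 (18.9674 on both Pak1-/- arrays, against 18.28 and 18.31, adjusted p = 0.0018 in limma). Whether that equal value is a ceiling of the scale was not tested. Gm3775 passed the filter through Pak1-/- alone and so had to be higher there (at least 1.15-fold). Tmc1 was not well above background on any array. These neighbours were looked at after the decrease of the 2 Aldh1a genes had been seen.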
